A study of Caenorhabditis elegans with 4 samples.

Results

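Binding sites of the meiotic cohesin subunit REC-8 were examined inside the piRNA gene domains of Caenorhabditis elegans chromosome IV. A REC-8 peak was counted there when its midpoint lay from 4500000 to 7000000, called the proximal domain here, or from 13500000 to 17200000, called the distal domain (coordinates on WormBase WS220). Of the 5889 nuclear peaks in the authors' combined list, 296 met this rule, 119 in the proximal and 177 in the distal domain, and the other 729 peaks of chromosome IV served for comparison. The domains take up 6.2 Mb, or 35.4% of the chromosome. The rule uses position alone and no score, width or overlap of a peak.

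The peaks came from chromatin immunoprecipitation followed by sequencing (ChIP-seq) of whole fem-2(b245) worms, labelled as hermaphrodites at the young adult stage with a germline, at 20 degrees Celsius. The protocol for growth instead describes harvesting gravid animals. The ChIP group had 2 libraries made with the affinity-purified rabbit polyclonal antibody SDQ3914 to REC-8, and the input group had 2 libraries of input DNA, which were not analysed here. All 4 libraries carried the fem-2(b245) mutation on chromosome III, so none was wild type. The fem-2 product, a protein phosphatase, promotes male fates, and b245 is a temperature-sensitive allele. Each ChIP library had a peak list of its own, with 1961 and 2026 nuclear peaks, and the combined list was the authors' own, with no replicate error. The lists carry no read counts, and the sequencing depth behind a peak is unknown. The labels do not say whether the replicates came from separate cultures, so the spread between them may be technical.

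Cohesin is a ring-shaped complex that holds sister chromatids together, and REC-8 is one of the kleisin subunits that close the ring in meiotic cells. piRNAs are small RNAs bound by the Piwi protein PRG-1, which silence foreign and repeated sequences in the worm germline. In C. elegans most piRNAs are made from very short, separate transcription units gathered in broad clusters on chromosome IV, each unit with its own promoter, and these lie among ordinary protein-coding genes. A RefSeq gene table on another build, WBcel235, listed 15363 piRNA genes, of which 14714 (95.8%) were on chromosome IV. Its coordinates were not used, so the borders of the domains were not checked against single piRNA genes and no peak was assigned to a gene. No sequence of a peak was read, since no genome of the peaks' build was used here.

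REC-8 peaks were sparser in the piRNA domains than on the rest of chromosome IV in all 3 lists, but by differing amounts. Replicate 1 had 20.5 peaks per Mb in the domains (127 peaks), against 22.2 on the rest of chromosome IV (251 peaks). Replicate 2 had 17.6 peaks per Mb in the domains (109 peaks), against 22.7 on the rest (256 peaks). The gap was thus small in replicate 1 and wider in replicate 2. The mean log2 ratio of the domains to the rest was -0.24 ± 0.18 (SD, n = 2), with -0.12 in replicate 1 and -0.37 in replicate 2. In the combined list the domains had 47.7 peaks per Mb and the rest 64.5, a log2 ratio of -0.44. With 2 replicates an exact sign-flip test cannot go below p = 0.5 (two-sided), the value found here, so no difference between the domains and the rest could pass a threshold, and all comparisons are given as descriptions.

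The domains differed from each other in the replicates. The proximal domain had 13.2 peaks per Mb in replicate 1 and 16.4 in replicate 2. Its mean was 14.8 ± 2.26 (SD, n = 2), against 22.4 ± 0.313 on the rest of the chromosome. Both replicates therefore had fewer peaks there, with log2 ratios of -0.75 and -0.47. The distal domain had 25.4 peaks per Mb in replicate 1 and 18.4 in replicate 2, so it lay above the rest of the chromosome in the first list (log2 ratio 0.19) and below it in the second (-0.30). Combined peaks were equally dense in the domains, at 47.6 peaks per Mb in the proximal and 47.8 in the distal domain.

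**Figure D1:**
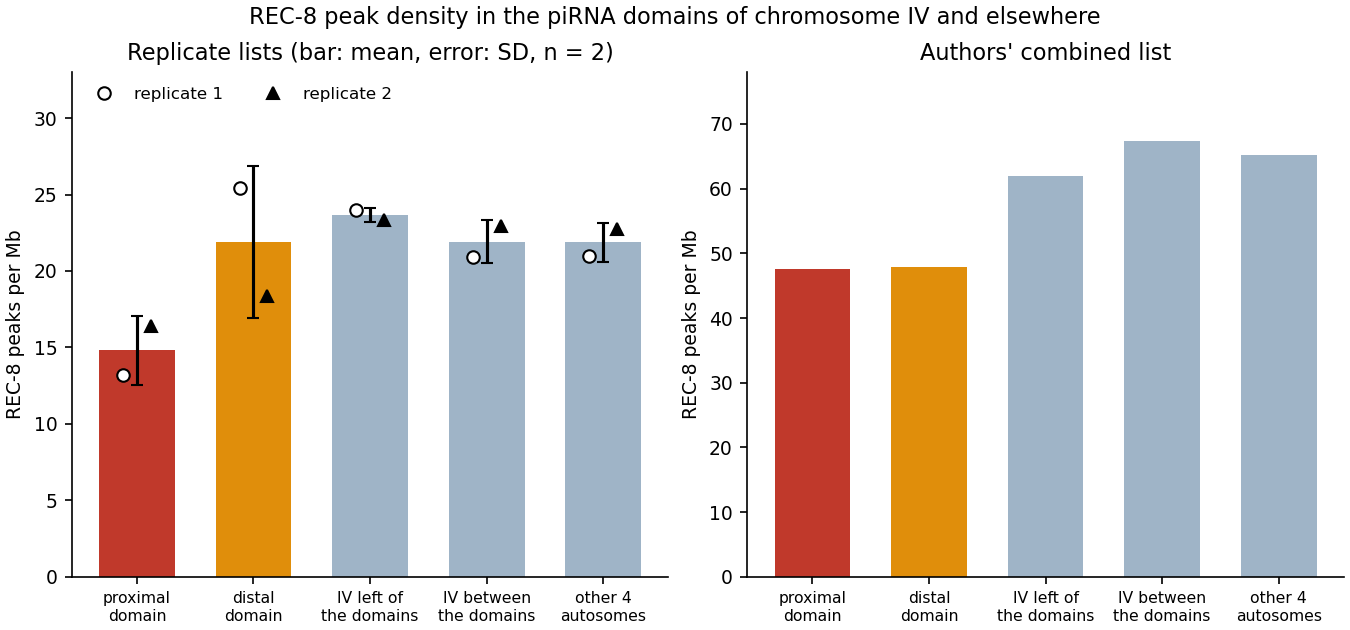
REC-8 peaks per Mb in the proximal and distal piRNA domains, in the parts of chromosome IV left of and between them, and on the other 4 autosomes. Left, bars are means of the 2 replicates with the SD and a marker for each replicate. Right, the combined list without error. The proximal domain is the lowest bar on the left at 14.8, and the domains lie at 47.6 and 47.8 on the right, below the other bars.

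The parts of chromosome IV around the domains had similar densities in the replicates. Left of the proximal domain, replicate 1 had 24 and replicate 2 had 23.3 peaks per Mb, and between the domains they had 20.9 and 22.9. The stretch right of the distal domain is only 0.294 Mb long and held 7 and 2 peaks. On the other 4 autosomes together the replicates had 20.95 and 22.8 peaks per Mb. The proximal domain was thus below each of these large autosomal stretches in both replicates. The distal domain was above them in replicate 1 and below them in replicate 2. The X chromosome was sparser than either domain, at 12.4 peaks per Mb in replicate 1 and 10.1 in replicate 2.

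The domains sit at given places along a worm chromosome, near the border of the left arm with the centre and on the right arm. The stretches at the same relative positions on chromosomes I, II, III and V were therefore set beside them. In the combined list the log2 density ratio of these stretches to the rest of their chromosome was -0.12 on I, 0.14 on II, 0.20 on III and 0.21 on V, against -0.44 on IV. At the relative position of the proximal domain, replicate 1 gave 0.082, -0.047, 0.18 and 0.37 on I, II, III and V, where IV had -0.75. Replicate 2 gave 0.057, -0.12, 0.27 and 0.19, where IV had -0.47. Chromosome IV was thus the lowest of the 5 autosomes at this position in both replicates, which was not tested. At the relative position of the distal domain, replicate 1 ranged from -0.40 on I to 0.30 on II, with IV at 0.19, and replicate 2 from -0.39 on I to 0.37 on II, with IV at -0.30. The distal domain of IV lay within the range of the other autosomes in both replicates but not in the combined list, where it had -0.43 and the others ran from -0.28 on I to 0.24 on III.

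With the domains pooled, the shortage lay below the top of the score range of the combined list. Its most strongly scored peaks were about as frequent as on the rest of chromosome IV. This pools domains that differed, since such peaks were sparser in the proximal and denser in the distal domain, as given below. The deposited score measures how strongly a peak stood out to the peak caller, on a scale not given in the sources used here. When the combined list was cut into 4 equal groups by score over the genome, the top group, with scores of 20.5 or more, had 16.5 peaks per Mb in the domains (102 peaks) and 16.1 on the rest of chromosome IV (182 peaks). The 3 lower groups together had 31.3 peaks per Mb in the domains and 48.4 on the rest. With that list cut at 50%, the log2 ratio was -0.37 for its higher-scored and -0.51 for its lower-scored part, so both were sparser in the domains. The replicates were cut in the same way. The lower-scored 50% had a log2 density ratio of the domains to the rest of -0.41 in replicate 1 and -0.67 in replicate 2, averaging -0.54 ± 0.18 (SD, n = 2). The higher-scored 50% had 0.13 and -0.074, a mean of 0.027 ± 0.14, so the replicates had opposite signs there.

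Weak and strong peaks parted ways in the distal domain of the replicates and not in the proximal one. Distal peaks of the higher-scored 50% were denser than on the rest of the chromosome in both replicates, at log2 density ratios of 0.53 and 0.17, while the lower-scored 50% were sparser in both, at -0.24 and -0.87. In the proximal domain the higher-scored peaks had -0.79 and -0.52 and the lower-scored ones -0.71 and -0.42. Weak and strong peaks were thus both sparse in the proximal domain. Both parts of the combined list were sparser in each domain, with -0.29 for the higher-scored and -0.62 for the lower-scored 50% in the distal domain, and -0.51 and -0.36 in the proximal one. The top score group of the combined list had 19.7 peaks per Mb in the distal and 11.6 in the proximal domain, against 16.1 on the rest. The difference between the domains was not tested, and this view by domain and score was chosen after the values were seen.

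Median scores were higher in the distal domain than in the proximal domain or on the rest of the chromosome in all 3 lists. The distal median score was 289 in replicate 1 and 619 in replicate 2, against 169 and 190 on the rest of chromosome IV, ratios of 1.70 and 3.25. The proximal domain had medians of 161 and 216, ratios of 0.949 and 1.14 to the same rest. The distal peaks stood apart most in replicate 2. Scores of the replicates rarely passed 3100, where many peaks tied. At this ceiling or above it were 13 of 68 distal peaks in replicate 2 (19.1%), against 10 of 256 on the rest of the chromosome (3.91%), and 2 of 41 proximal peaks (4.88%). In replicate 1 they were 2 of 94 distal peaks (2.13%), against 7 of 251 on the rest (2.79%), and 0 of 33 proximal peaks. The excess at the ceiling was therefore seen in replicate 2 and not in replicate 1. In the combined list, 73 of 177 distal members (41.2%) fell in the top score group, and 29 of 119 proximal ones (24.4%), against 182 of 729 on the rest (24.97%).

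**Figure D2:**
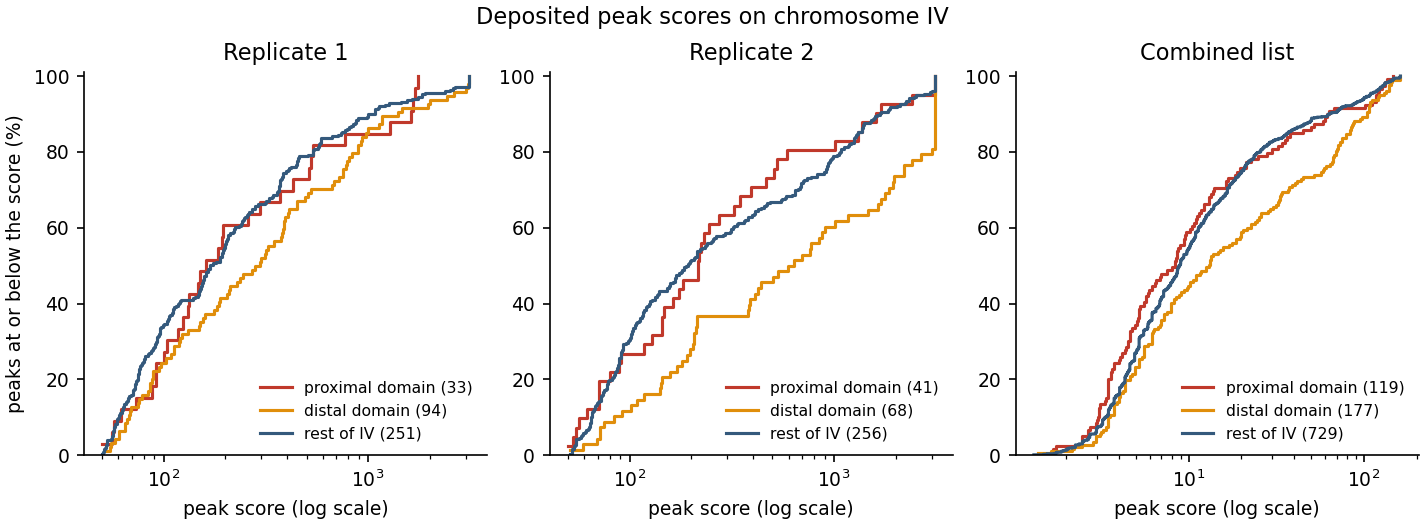
Cumulative share of peaks (%) by deposited score on a log axis, for the proximal domain, the distal domain and the rest of chromosome IV in each list, with the number of peaks in brackets. The distal curve runs to the right of the other curves over most of the range in all 3 panels, most clearly in replicate 2, where its median was 619 against 190 on the rest.

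Peak widths differed little between the domains and the rest of the chromosome, and the lists disagreed in direction. The median width in the domains was 404 bp in replicate 1, against 428 bp on the rest, and 1528 bp in replicate 2, against 1439 bp on the rest. The mean log2 ratio was 0.0017 ± 0.12 (SD, n = 2). The combined list had medians of 301.5 bp in the domains and 293 bp on the rest. The replicates differed from each other far more than the regions did, as they do over the whole genome. The median width of distal peaks was 1778.5 bp in replicate 2 and 410.5 bp in replicate 1, and that of proximal peaks 1402 and 396 bp. Combined peaks of at least 1000 bp made up 26 of 177 in the distal domain (14.7%, exact 95% binomial interval 9.83 to 20.8%) and 7 of 119 in the proximal one (5.88%, 2.40 to 11.7%), against 61 of 729 on the rest (8.37%, 6.46 to 10.6%). Such intervals treat peaks as independent and cover counting error only. Replicate 1 reversed this order, with 10 of 94 distal (10.6%), 5 of 33 proximal (15.2%) and 30 of 251 on the rest (11.95%). In replicate 2 nearly all peaks were this wide, so that limit could not separate the regions there. At 2000 bp or more, replicate 2 had 38.2% of distal, 21.95% of proximal and 25.4% of peaks on the rest. Replicate 1 had 3.19, 3.03 and 5.18% in the same order. The distal excess was thus not shared by replicate 1.

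Peaks covered less of the domains than of the rest of the chromosome in all 3 lists. In replicate 1, peaks covered 1.17% of the domains and 1.36% of the rest of chromosome IV. In replicate 2 they covered 3.565% of the domains and 4.12% of the rest. Combined peaks covered 2.41% of the domains and 3.07% of the rest. The log2 ratios of -0.22 and -0.21 were nearly equal, with a mean of -0.22 ± 0.0096 (SD, n = 2), but the domains taken singly were not. The log2 ratio of cover was -0.85 and -0.32 for the proximal domain, and 0.084 and -0.14 for the distal domain, in replicates 1 and 2. Cover of the proximal domain was 0.756% and 3.30%, and that of the distal domain 1.44% and 3.75%. The proximal domain was again the lower one in both replicates.

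Neighbouring peaks were about as far apart in the domains as elsewhere. The median distance between neighbouring midpoints was 20.1 kb in replicate 1 and 29.3 kb in replicate 2 within the domains, against 19.8 and 25.2 kb on the rest, a mean log2 ratio of 0.12 ± 0.14 (SD, n = 2). In the combined list it was 7.45 kb in the domains and 7.58 kb on the rest. Empty windows were more common in the domains in the combined list. Of the 62 windows of 100 kb in the domains, 4 held no combined peak, against 1 of 112 windows on the rest, and the median window held 4 combined peaks in the domains and 6 on the rest. In replicate 1 empty windows made up 25.8% in the domains and 26.8% on the rest, and in replicate 2 24.2% and 17.0%. The proximal domain had the widest spacing, with medians of 48.4 kb in replicate 1 and 30.1 kb in replicate 2. Distal peaks had medians of 14.5 and 29.3 kb.

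Close neighbours, with midpoints within 5 kb of each other, were more common in the domains in replicate 2. They made up 17 of 107 neighbour pairs there (15.9%), against 18 of 253 on the rest of the chromosome (7.11%). On the other autosomes the share in replicate 2 was 13.53%, so the rest of chromosome IV was the lower one. In replicate 1 the shares were 34.4% in the domains and 34.7% on the rest. The proximal domain had 21.9% in replicate 1 and the distal domain 38.7%.

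Replicate peaks were most frequent at the left end of the proximal domain. In steps of 0.5 Mb starting at its left border, replicate 1 had 16, 6, 5, 4 and 2 peaks and replicate 2 had 14, 11, 5, 4 and 7. Both were thus densest in the first step, where replicate 1 had 32.0 and replicate 2 had 28.0 peaks per Mb. The combined list had 29, 21, 18, 15 and 36 peaks in the same steps, so its count was higher again in the last step, as was that of replicate 2. Of those 36 peaks only 2 (5.56%) overlapped a peak in both replicates and their median score was 4.42, against 14 of 29 (48.3%) and a median of 29.95 in the first step.

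The distal domain had no such slope. Its 0.5 Mb steps held 18, 9, 9, 24, 10, 8 and 11 peaks in replicate 1, and 14, 7, 7, 12, 5, 4 and 12 in replicate 2, with 5 and 7 more in the last 0.2 Mb. The step from 15.0 to 15.5 Mb had a median score of 2239 in replicate 2, above the distal median of 619, but 206 in replicate 1, below the distal median of 289. Of its 25 combined peaks, 14 (56.0%) overlapped both replicates.

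**Figure D3:**
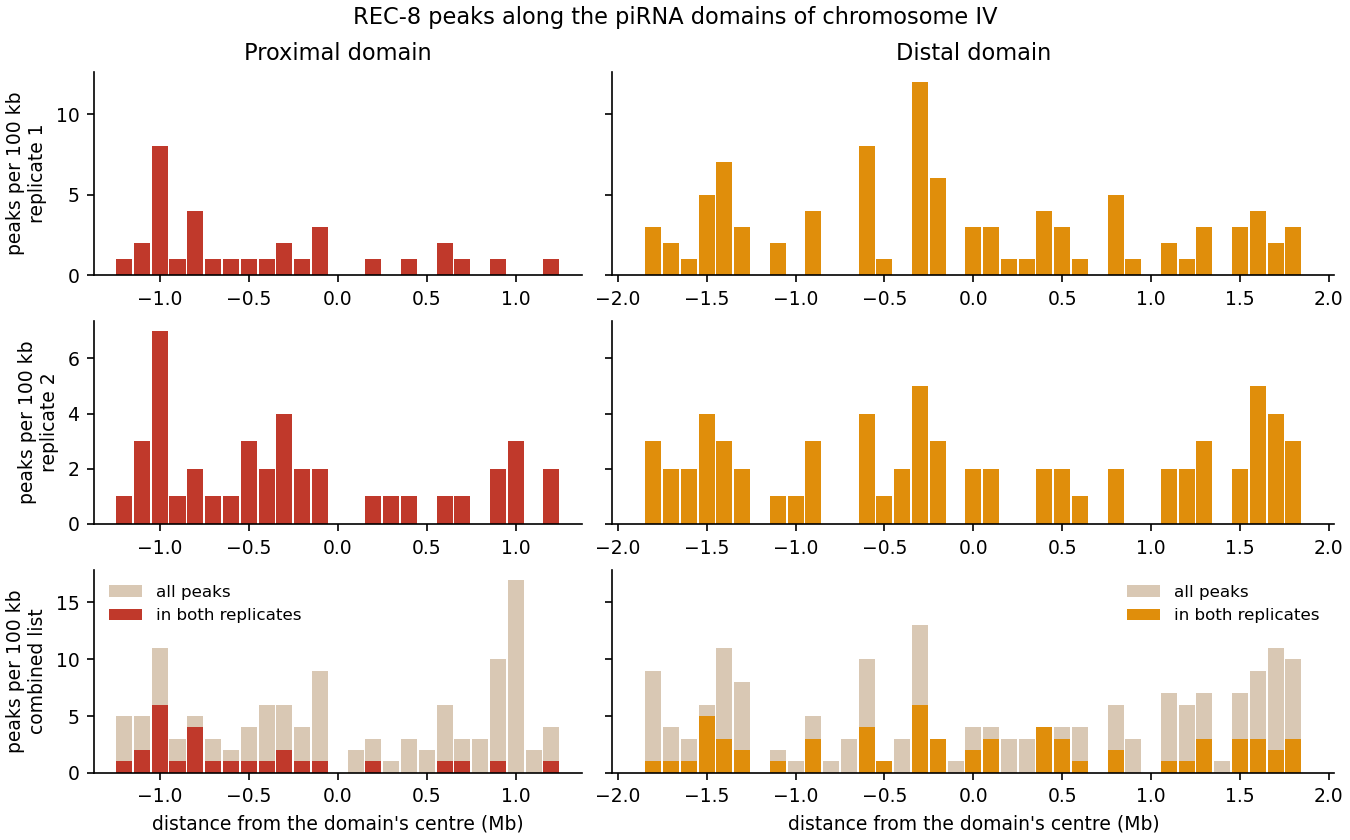
REC-8 peaks per 100 kb along the proximal and distal domains, against the distance from each domain's centre in Mb, for replicate 1, replicate 2 and the combined list, whose darker bars are peaks that overlap both replicates. Replicate peaks crowd the left part of the proximal domain, and the tallest combined bar there, with 17 peaks, holds 0 peaks found in both replicates.

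The most crowded windows of the domains differed in how many of their peaks were in the replicates. In the proximal domain, the window from 6700001 to 6800000 held 17 combined peaks, of which 0 overlapped both replicates, with 0 peaks in replicate 1 and 3 in replicate 2. Most of them belonged to a run of 11 combined peaks with midpoints within 5 kb of the next, from 6711282 to 6728637, with a median score of 4.5. All 11 overlapped replicate 2 alone, which had 3 peaks over this run. Left of the domains a run of 12 combined peaks, from 2236961 to 2253156, had a median score of 4.33, with 1 peak in both replicates. A long run of low-scored peaks was thus not confined to the domains. The next fullest window of the proximal domain, from 4700001 to 4800000, held 11 combined peaks, 6 of them in both replicates, with 8 and 7 replicate peaks. In the distal domain, the window from 15000001 to 15100000 held 13 combined peaks, 6 of them in both replicates, with 12 peaks in replicate 1 and 5 in replicate 2. The windows from 13900001 and from 17000001 tied for the next place with 11 combined peaks each, of which 3 and 2 were in both replicates.

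The longest stretch without a combined peak was 126 kb in the proximal domain, from 5967379 to 6093501, and 164 kb in the distal domain, from 14224074 to 14387791. Neither contained a replicate 1 peak, and 1 replicate 2 peak ran over an edge of each. Between the domains the longest such stretch was 124 kb. Stretches of over 100 kb without a combined peak numbered 3 in the proximal and 8 in the distal domain, against 4 between the domains and 2 left of them. In that order these regions are 2.5, 3.7, 6.5 and 4.5 Mb long. In the same order, replicate 1 had 10, 12, 21 and 15 such gaps of its own, and replicate 2 had 9, 11, 14 and 13.

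The next comparison asked how often the members were also in the replicate lists. Of the 296 members, 89 (30.1%, exact 95% binomial interval 24.9 to 35.6%) overlapped a peak in both replicates by at least 1 bp, against 172 of 729 (23.6%, 20.6 to 26.8%) on the rest of chromosome IV. Over all nuclear combined peaks the share was 23.1%. Replicate 1 was overlapped by 106 members (35.8%), against 215 peaks on the rest (29.5%), with 28.9% over all nuclear peaks. Replicate 2 was overlapped by 167 members (56.4%), against 365 on the rest (50.1%), with 50.9% over all nuclear peaks. Neither replicate was overlapped by 112 members (37.8%), against 321 on the rest (44.0%), with 43.3% over all. The members were thus above the background in overlap with each replicate and below it in overlap with neither, and the intervals of the domains and the rest overlapped for the share in both. The stretch left of the domains came near to them, with 28.7% of its 279 combined peaks in both replicates, 32.6% in replicate 1 and 53.8% in replicate 2, while the stretch between the domains had 20.3% in both. The combined list came from the same study, so these overlaps are no independent evidence for a peak.

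The distal domain carried this difference. There 62 of 177 members (35.0%, 28.0 to 42.5%) were in both replicates and 56 (31.6%) in neither. In the proximal domain 27 of 119 (22.7%, 15.5 to 31.3%) were in both and 56 (47.1%) in neither, nearer to the shares of all nuclear peaks. Among members of the top score group the shares in both replicates were nearly level, at 23 of 29 in the proximal domain (79.3%), 57 of 73 in the distal domain (78.1%) and 138 of 182 on the rest (75.8%). Members in both replicates had a median width of 704 bp and a median score of 69.5 in the domains, against 708 bp and 49.4 for such peaks on the rest.

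**Figure D4:**
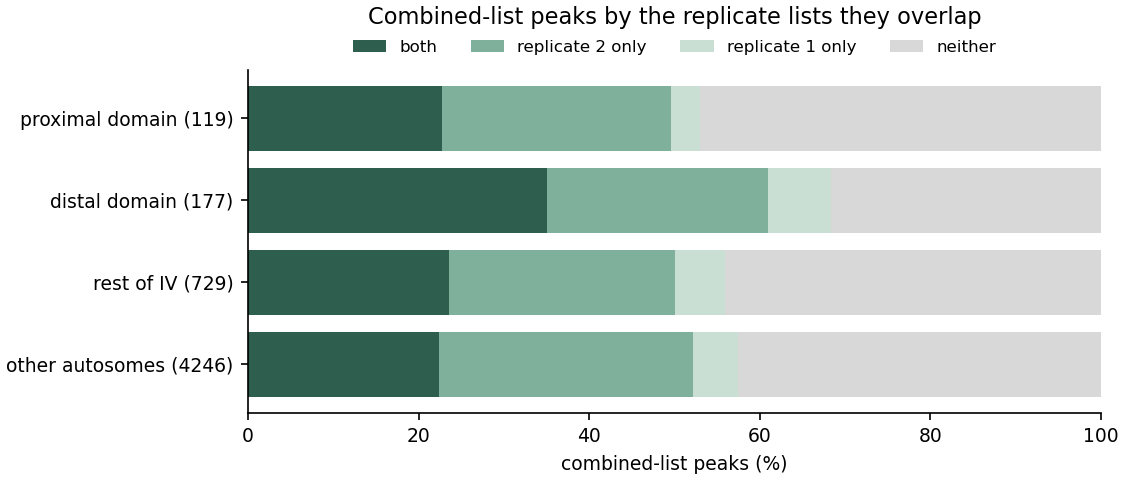
Share (%) of combined-list peaks that overlap both replicate lists, replicate 2 only, replicate 1 only or neither, by region, with the number of peaks in brackets. The share in both is 35.0% in the distal domain and 22.7% in the proximal domain, against 23.6% on the rest of chromosome IV.

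The replicate lists were also set against each other. Of the replicate 1 peaks in the domains, 108 of 127 (85.0%, 77.6 to 90.7%) overlapped a replicate 2 peak, against 205 of 251 (81.7%, 76.3 to 86.3%) on the rest of the chromosome and 80.9% over the nuclear genome. Left of the domains the share was 97 of 108 (89.8%), higher than in the domains. Of the replicate 2 peaks in the domains, 78 of 109 (71.6%, 62.1 to 79.8%) overlapped a replicate 1 peak, against 149 of 256 (58.2%, 51.9 to 64.3%) on the rest and 58.7% over the nuclear genome. Left of the domains this share was 69 of 105 (65.7%). On the X chromosome it was 128 of 179 (71.5%), level with the domains. For distal peaks it was 53 of 68 (77.9%) and in the proximal domain 25 of 41 (61.0%). Among these regions, replicate 2 peaks of the distal domain were thus the ones most often met by replicate 1.

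At places shared one to one the replicates lay close together. The domains had 60 such pairs, 23 proximal and 37 distal, with midpoints a median of 40.5 bp apart, against 56.5 bp for the 118 pairs on the rest of the chromosome. In all 60 the replicate 1 peak lay wholly inside a wider replicate 2 peak, as it did in 117 of the 118 pairs on the rest. The score was higher in replicate 2 at 44 of the 60 pairs and at 85 of the 118 on the rest. Neither trait was thus particular to the domains. The strongest proximal pair, at 4897729 to 4898806 in replicate 1, scored 1276 there and 2408 in replicate 2. Across the pairs of the domains the Spearman coefficient of the scores was 0.81 and Pearson's r was 0.88, as descriptions across peaks that share libraries. The Spearman coefficient was 0.66 in the proximal and 0.86 in the distal domain, against 0.70 on the rest of the chromosome. In the same order Pearson's r was 0.89, 0.90 and 0.77.

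**Figure D5:**
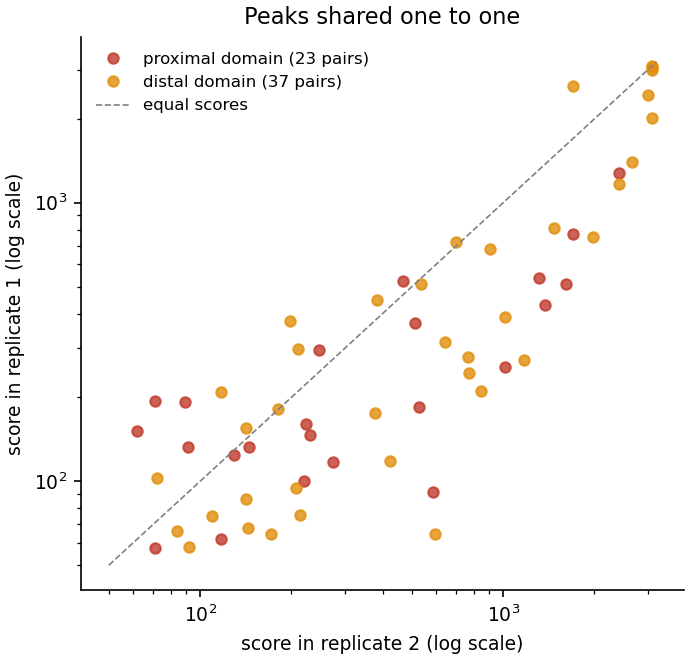
Score in replicate 1 against score in replicate 2, both on log axes, for the 23 proximal and 37 distal peaks shared one to one. Most points lie below the dashed line of equal scores, since replicate 2 scored higher at 44 of 60 pairs. On the rest of chromosome IV, not drawn, it scored higher at 85 of 118 pairs.

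The highest-scored members found in both replicates were named by domain. In the proximal domain the peak at 5183509 to 5184379, of 871 bp, had the highest combined score, 147, with 770 in replicate 1 and 1699.65 in replicate 2. It was followed by 4513212 to 4513892, of 681 bp, with a combined score of 135, and 6918975 to 6919692, of 718 bp, with 133. Their replicate scores were 513 and 1613, and 537 and 1310, in replicates 1 and 2. All 3 were single peaks in each replicate, with the higher score in replicate 2.

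In the distal domain the leading peaks were neighbours. The peaks at 15472304 to 15472902 and 15471312 to 15472110 had combined scores of 161.55 and 160.7, ranks 11 and 17 of the whole list. Replicate 1 had a separate peak at each, with scores of 923 and 1458, whereas replicate 2 had a single peak of 2682 bp over both, with a score of 3100. The third, at 14217861 to 14219804, scored 145 in the combined list. It was split into 2 peaks in replicate 1, the stronger with 1125, and was 1 peak with 3100 in replicate 2.

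The widest members were broader in the distal domain. The 5430 bp peak at 14475678 to 14481107 was matched by 1 replicate 1 peak, 4704 bp wide, and 1 replicate 2 peak, 6134 bp wide, with 3100 in both. A 3383 bp peak at 15373660 to 15377042 was 2 peaks in replicate 1 and 1 in replicate 2, and reached 3100 in each. A 3078 bp peak at 15187827 to 15190904 was split into 4 peaks in replicate 1, the strongest with 493, and was 1 peak with 3100 in replicate 2. The combined scores of these 3 were 134, 97.5 and 79.4.

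In the proximal domain the widest member, of 3435 bp at 6357704 to 6361138, had a low combined score of 19.6, with 525 in replicate 1 and 465 in replicate 2. The other wide members there, of 1629 bp at 4921371 to 4922999 and 1616 bp at 4923714 to 4925329, lay next to each other. They scored 121 and 117 in the combined list, and 1653 and 1694 in replicate 1. In replicate 2 they overlapped broader peaks of 3096 and 4382 bp, each with 3100, the only proximal replicate 2 peaks at that ceiling. The members beside them, at 4920562 and 4925993, also overlapped replicate 2, which had only 2 peaks in that 100 kb window.

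Members missing from both replicates had low scores at the median, though 8 of the 112 were in the top score group, 1 proximal and 7 distal. On the rest of chromosome IV 8 of 321 such peaks were in that group, and over all nuclear peaks 72 of 2551. The share was thus larger in the distal domain, with 7 of its 56 such members. It was not larger in the proximal domain, with 1 of 56. This difference was not tested. The highest-scored member in neither replicate was at 6117804 to 6118094 in the proximal domain, with a combined score of 21.3 and a width of 291 bp. In the distal domain it was at 17108223 to 17108476, with 33.7 and 254 bp. The median score of the 112 members in neither replicate was 5.775 and their median width 214.5 bp, against 5.54 and 214 bp for the 321 such peaks on the rest of the chromosome.

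The combined peaks nearest to each border of the domains were also named. Just inside the left border of the proximal domain was the 4513212 peak with a score of 135, and just outside it a 240 bp peak at 4482610 with 9.83. At its right border the peak inside, at 6974110, scored 4.34 and the one outside, at 7039455, scored 30.4. At the left border of the distal domain the peak inside, from 13499943 to 13500360, crossed the border itself and scored 7.2, and the one outside, at 13487506, scored 4.49. At the right border the peak inside, at 17171810, scored 9.77 and the one outside, at 17210824, scored 8.13.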

How the data were processed

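Peaks of 2 REC-8 ChIP-seq libraries and the authors' combined list were analysed. Titles of the samples gave the groups and replicate numbers. The submitters' processing notes name BWA and the build ce10. Peaks are on WormBase WS220 and were called with MACS for the replicates and MACS v2 for the combined list, per the file headers and source columns. The deposited score of each peak is the caller's. Scores start at 50 in the replicates and 1.31 in the combined list and were compared only within a kind of list. Filters, use of inputs and the way of combining replicates were not stated in the labels or headers. Calling depends on depth and fragment length, so densities and widths may reflect both.

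Widths, midpoints, spacings and overlaps (at least 1 bp) were computed with Python 3.11.15, numpy 2.4.6, pandas 2.3.3 and scipy 1.17.1 (intervals) and drawn with matplotlib 3.10.9, and checked on simulated data. Spacings were taken within a stretch. Chromosome extents were the largest peak ends. Ratios are log2, domains over rest, averaged over replicates. Named peaks were, per domain, the 3 highest-scored in both replicates, the 3 widest, the highest-scored in neither, the 2 fullest 100 kb windows, the longest empty stretch and the peaks beside each border. Domains, rules and tests were chosen with earlier results of these data known. A pair at 4897729, the run at 6711282 and the steps of 0.5 Mb were named after their values were seen. Sequence and motif comparisons were planned only for a WS220 genome and were not made.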

Additional observations from a re-analysis of the deposited data

Results flagged for a closer look

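The higher-scored 50% of peaks moved in opposite directions in the domains, relative to the rest of chromosome IV, in both replicates. Their log2 density ratio in the proximal domain was -0.66 on average, with -0.79 in replicate 1 and -0.52 in replicate 2. In the distal domain it was 0.35 on average, with 0.53 and 0.17. In the combined list both ratios were below 0, at -0.51 in the proximal and -0.29 in the distal domain. The difference was not tested, since 2 replicates cannot pass a threshold. The numbers behind it are small, with 16 and 18 higher-scored peaks in the proximal domain and 59 and 43 in the distal one.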

How the results depend on the processing

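Of 79 alternative values for 8 results, 41 moved by less than the replicate SD or stayed within the interval of a share, 28 moved further and 10 changed sign. Some of the 41 were fixed in advance. With 1 of 2 replicates left out, a mean ratio always moves by less than the replicate SD. Membership by overlap chose the same members, so its values could not move. The count of 41 is therefore no measure of stability. Of the 79, 5 were chosen after seeing the data. The log2 density ratio (-0.24) was -0.44 in the combined list, -0.61 for the proximal and -0.055 for the distal domain, and from -0.37 to -0.12 with a replicate left out. With the higher-scored 50% it was 0.027 (proximal -0.66, distal 0.35), and with the lower-scored 50% -0.54 (proximal -0.57, distal -0.55). The width ratio (0.0017) was -0.051 in the higher-scored 50%, -0.075 for the proximal and 0.12 for the distal domain, -0.090 against the stretch between the domains and -0.028 against the other autosomes. It ranged from -0.083 without replicate 2 to 0.087 without replicate 1, so its sign depended on the replicate. The spacing ratio (0.12) was -0.025 in the combined list, -0.29 in the higher-scored 50%, 0.77 for the proximal and -0.12 for the distal domain, 0.28 with borders 250 kb inward and from 0.024 to 0.22 with a replicate left out. The ratio of cover (-0.22) was -0.35 in the combined list, -0.091 in the higher-scored 50%, -0.59 for the proximal and -0.028 for the distal domain, -0.26 against the stretch between the domains, -0.18 against the other autosomes and from -0.22 to -0.21 with a replicate left out. The share of members in both replicates (30.1%) was 22.7% in the proximal domain, and with a replicate left out from 35.8 to 56.4%, by construction. The share in replicate 1 (35.8%) was 26.1% in the proximal and 42.4% in the distal domain. The share in replicate 2 (56.4%) was 46.3% in the higher-scored 50%, 49.6% in the proximal domain and 40.9% with midpoints within 500 bp. The share in neither (37.8%) was 48.2, 47.1 and 47.0% in the same 3 settings and 31.6% in the distal domain. Using the higher-scored 50% leaves fewer peaks to overlap, and for the other changes the cause was not tested. Membership by overlap with a domain chose the same members, since no other peak touched a border. No paired analysis was possible because only the ChIP group was analysed here and it shares its numbers with inputs alone. Without the depth, a place with no peak in a list does not show that REC-8 was absent.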

Other observations

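The longest empty stretch of the proximal domain was nearly the same in both replicates. It ran from 5691535 to 5947780 in replicate 1 (256 kb), and replicate 2 had it from 5691917 to 5947097 (255 kb). The combined list had 4 and 3 peaks touching these stretches. Left of the domains the longest empty stretches also nearly coincided, from 1745980 to 2008876 and from 1746355 to 2008061, so this was not confined to the domains. In the distal domain they lay apart: replicate 1 was empty from 14481092 to 14740195, and replicate 2 from 16154632 to 16457974.

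Replicate 2 peaks that spanned several replicate 1 peaks numbered 16 of 68 in the distal domain and 2 of 41 in the proximal one, against 30 of 256 on the rest of chromosome IV. The largest run of replicate 1 neighbours in the distal domain had 9 peaks over 5.77 kb, from 15076527 to 15082297, where replicate 2 had 1 peak. Left of the domains the largest such run also had 9 peaks, over 3.79 kb from 221477 to 225263, with 1 replicate 2 peak. These counts were chosen after the values were seen and were not tested.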
